A study of Homo sapiens with 8 samples.

Results

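Chromatin remodelers and histone-modifying enzymes were taken as the genes whose symbols begin with KDM, SETD, SMARC, CHD and a digit, HDAC, ARID, CBX, MLL or EZH. By this rule 357 of 22506 listed Ago2 peaks were members, and they lay in 69 of 6326 genes. Ago2 is the Argonaute protein that carries microRNAs, and CLIP recovers the RNA crosslinked to it. The treated 293S cells, a derivative of the HEK293 human embryonic kidney line, had been given 20 µg/mL emetine for 60 minutes, and the control cells no emetine. Emetine is an alkaloid that blocks the elongation step of translation. Each treatment was 1 culture, of which 1 aliquot went to RNA-seq and 3 went to CLIP with different Ago2 antibodies, from Abnova, Santa Cruz and Sigma. The 3 CLIP libraries of a treatment are therefore not separate cultures, and every p-value below measures the spread between aliquots and antibodies. The deposited values do not say which library came from which antibody, so the libraries are numbered by falling value of 1 read.

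The encoded proteins set the state of chromatin. Histone methyltransferases write marks on histone tails, deacetylases and demethylases erase marks, and chromodomain proteins of the CBX group bind methylated histones. SWI/SNF, ISWI and CHD enzymes use ATP to slide or evict nucleosomes. Their mRNAs, often with long 3′ UTRs, are bound by microRNA-loaded Ago2 through pairing of the microRNA seed, and EZH2 is a known microRNA target in human cells. The symbols are those of the files: MLL, MLL2, MLL3, MLL4 and MLL5 are older names of the KMT2 genes (KMT2A, KMT2D, KMT2C, KMT2B and KMT2E), and SETD8 is KMT5A. The rule also takes in 5 MLLT genes, named as fusion partners of MLL in leukaemia. One of them, MLLT4, encodes afadin, a protein of cell junctions.

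Depth was low for single peaks. In emetine libraries 1 to 3 there were 41878, 105406 and 98104 reads in listed peaks, against 40519, 118122 and 104578 for control libraries 1 to 3, and the RNA libraries held 3771348 (emetine) and 1562475 (control) reads over the listed genes. No peak in the list had fewer than 11 reads in all, and the median was 15 for member peaks and for all peaks. Most of a peak's reads commonly sat in 1 library: the median share of the top library was 78.6% for member peaks and for all. Of the HEK293 markers, VIM and NEFL had listed peaks and PAX2, LHX1, NEFM and INA had none, and of 14 markers of other cells 0 had one.

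EZH2 encodes the methyltransferase of Polycomb repressive complex 2. Seed matches in its 3′ UTR for miR-101-3p, miR-26a-5p and let-7a-5p are shown because reads over EZH2 were among those with the highest emetine to control ratio. The mature microRNAs below are from RefSeq (GRCh38.p14), 5′ to 3′, with the seed (bases 2 to 8) in capitals. No 2 of the 3 share a seed, and none of these microRNAs was measured in the files used here.
hsa-miR-101-3p: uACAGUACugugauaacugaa
hsa-miR-26a-5p: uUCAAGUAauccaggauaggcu
hsa-let-7a-5p: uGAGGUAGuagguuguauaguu
The EZH2 sites are from the GENCODE transcript ENST00000460911.5 on the minus strand of GRCh38, with the complement of the seed in capitals.
miR-101-3p, chr7:148807573-148807595: aacctcgaGTACTGTgggcaatt
miR-101-3p, chr7:148807518-148807540: tttgcaaaGTACTGTaagaataa
miR-26a-5p, chr7:148807385-148807404: ataaagaaTACTTGAacttg
let-7a-5p, chr7:148807625-148807645: catctgCTACCTCctcccccc
Peak positions are in hg19, and no overlap between sites and peaks was computed. Over the 65 member 3′ UTRs that could be matched, the seed complement of miR-101-3p (GTACTGT) was in 16.9%, against 13.7% of the 5760 other 3′ UTRs. That of let-7a-5p (CTACCTC) was in 15.4% of member 3′ UTRs and 10.8% of others, and that of miR-26a-5p (TACTTGA) in 10.8% and 15.5%. Of the other 5 microRNAs searched, the complement of the miR-30a-5p seed (TGTTTAC) was in 33.8% of member 3′ UTRs and 21.1% of others, and that of miR-19b-3p (TTTGCAC) in 18.5% and 18.4%. The complements for miR-17-5p (GCACTTT; 20.0% of member 3′ UTRs and 26.6% of others), miR-92a-3p (GTGCAAT; 10.8% and 14.1%) and miR-16-5p (TGCTGCT; 24.6% and 26.5%) were less frequent in members. Only the transcript strand was searched. The member 3′ UTRs were longer, with a median of 1642 bases against 1370 bases, and length was not adjusted for. A matched 3′ UTR could be shorter than the stretch that carries the listed peaks. For CBX5 it had 1130 bases, while the listed 3′ UTR peaks spanned 7974 bases of the genome. A match of letters is a description of the 3′ UTR and not a bound site.

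Member peaks lay where other Ago2 peaks did, with somewhat more in coding sequence. Of the 357 peaks, 203 (56.9%) were in 3′ UTRs, 141 (39.5%) in coding sequence and 13 (3.64%) in 5′ UTRs; among all peaks these shares were 57.6%, 33.2% and 4.95%. Member genes carried a median of 3 peaks against 2 for all genes, and 21 of them (30.4%) had at least 6 peaks, against 16.0% of all genes. Both coding and 3′ UTR peaks were listed for 33 member genes, coding peaks only for 14 and 3′ UTR peaks only for 18. The classes differed in where their peaks lay. CHD remodelers had 22 of 32 peaks in coding sequence, whereas the Polycomb CBX genes had 39 of 46 and the HP1 genes 20 of 22 in 3′ UTRs.

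Some well-known genes of these families had no listed peak. They were SMARCA4 and SMARCB1 among the SWI/SNF subunits, KDM1A among the demethylases, HDAC6 among the deacetylases, CHD5 among the CHD genes, CBX8 among the Polycomb CBX genes and SETDB1 among the methyltransferases. Reads were concentrated in few of the genes that did: the 10 genes with most reads (CBX6, MLL2, CBX2, SMARCD2, MLL3, KDM2A, ARID1A, CBX5, MLL and SETD5) held 52.5% of the 6484 member reads. Read numbers were not divided by transcript length, so they compare libraries within a gene and not genes with each other. Reads were found in all 6 libraries for 18 member genes and in a single library for 11.

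**Figure D1:**
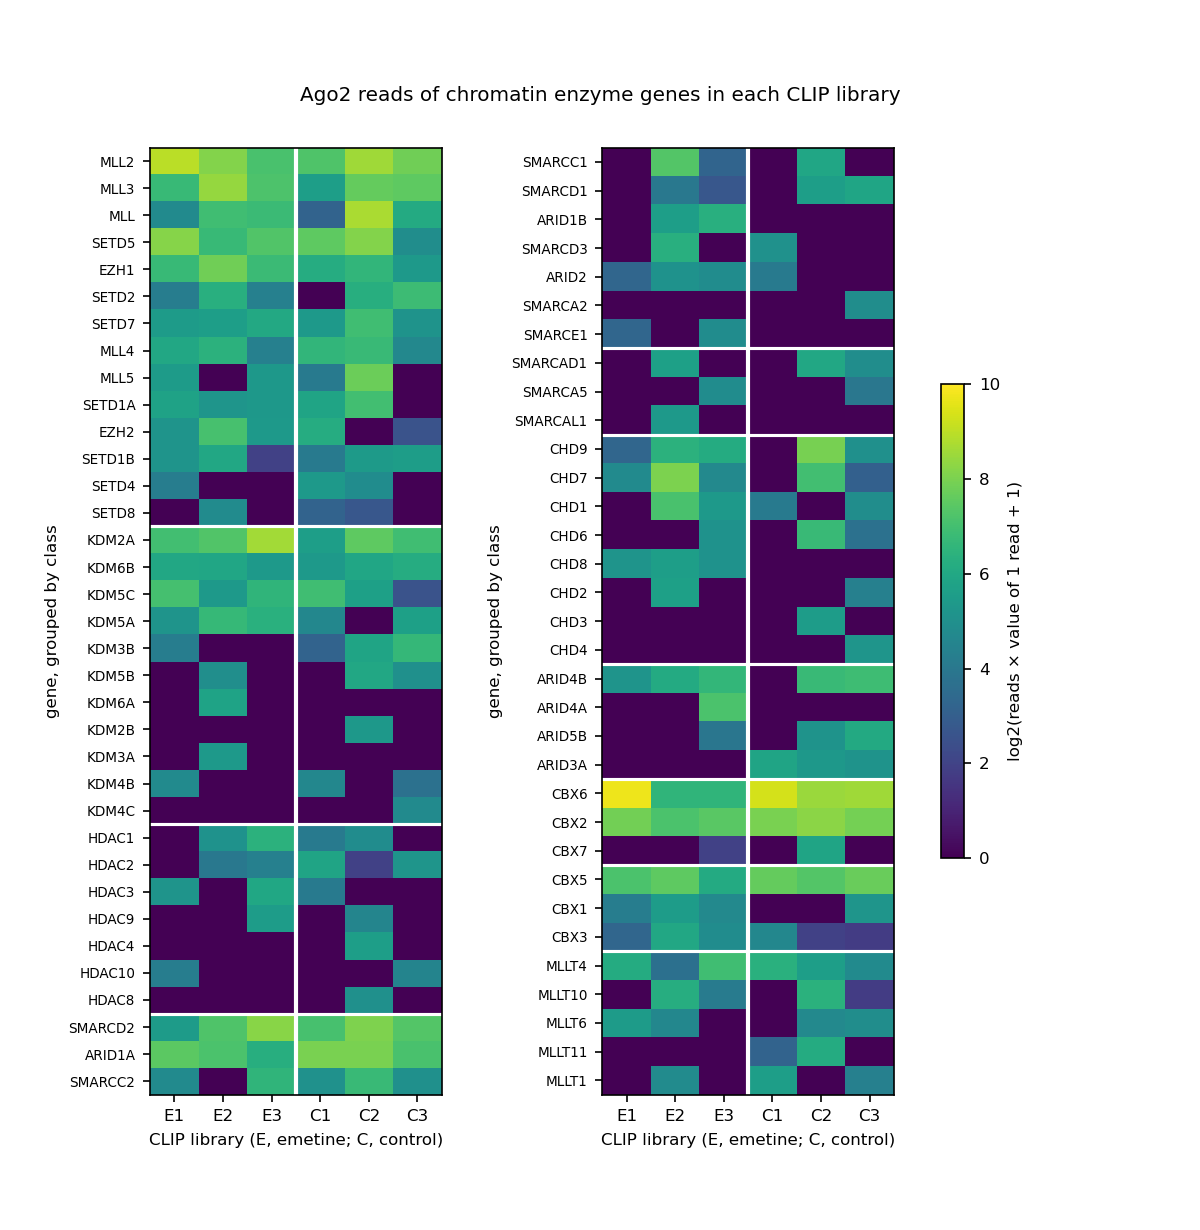
Ago2 reads of the member genes, 1 of them not shown, in each CLIP library, as log2(reads × value of 1 read + 1), with emetine libraries E1 to E3 left of control libraries C1 to C3 and white lines between classes. CBX6, CBX2 and MLL2 were bright in all 6 libraries, while many genes were at 0 reads in several libraries of both treatments.

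The amount of Ago2 reads over the chromatin genes as a whole differed between treatments by less than the libraries did among themselves. Member peaks held 405, 1369 and 1204 reads in the emetine libraries, against 371, 1888 and 1247 in the control libraries. As a share of all listed-peak reads this was 0.967%, 1.30% and 1.23% with emetine, against 0.916%, 1.60% and 1.19% in the control. The mean share was 1.16% ± 0.175 with emetine and 1.24% ± 0.343 in the control (SD, n = 3 each; exact permutation test, two-sided, p = 1.0, where the smallest p that 3 against 3 allows is 0.1). The libraries of the treatments overlapped. As a share of listed-peak reads without noncoding exons, members held 1.79%, 1.39% and 1.43% with emetine, against 1.61%, 1.71% and 1.38% in the control. The lower share in library 1 of each treatment was not seen there.

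No member peak passed the test. With limma on log2(reads × value of 1 read + 1), 0 of 357 member peaks and 0 of 69 member genes had an adjusted p under 0.05, beside 0.0% of all 22504 peaks tested and 0.0% of all 6326 genes. The smallest adjusted p was 0.784 for member peaks and 0.8 for member gene sums, and the median standard error of a member peak's log2 change was 2.05. At an unadjusted p under 0.05 limma gave 1 member peak higher with emetine, beside 0.769% of all peaks, and 2 lower, beside 0.298%. For gene sums it gave 1 member higher (CHD8), beside 1.09% of all genes, and 1 lower (ARID3A), beside 0.759%, which is 2 members beside 1.85% in both directions. With limma-voom, 0 members passed after adjustment. The log2 change was above 0 for 179 member peaks and below 0 for 178, with a median of 0.00, beside 0.01 over all peaks. Peaks with no read in the 3 control libraries were 65 (18.2%) of the members, beside 17.7% of all peaks, and peaks with no read in the 3 emetine libraries were also 65 (18.2%), beside 20.2%. In 21 member genes both kinds of peak occurred on the same gene. This was not counted over all genes, which carried a median of 2 peaks, against 3 for member genes. Summed per gene, 36 members were above 0 and 33 below, with a median of 0.17, beside 0.04 over all genes. Of the 10 classes below, the Polycomb CBX genes alone kept the sign of their median log2 change under every setting and with each library left out; within the methyltransferases, the EZH genes did so too.

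**Figure D2:**
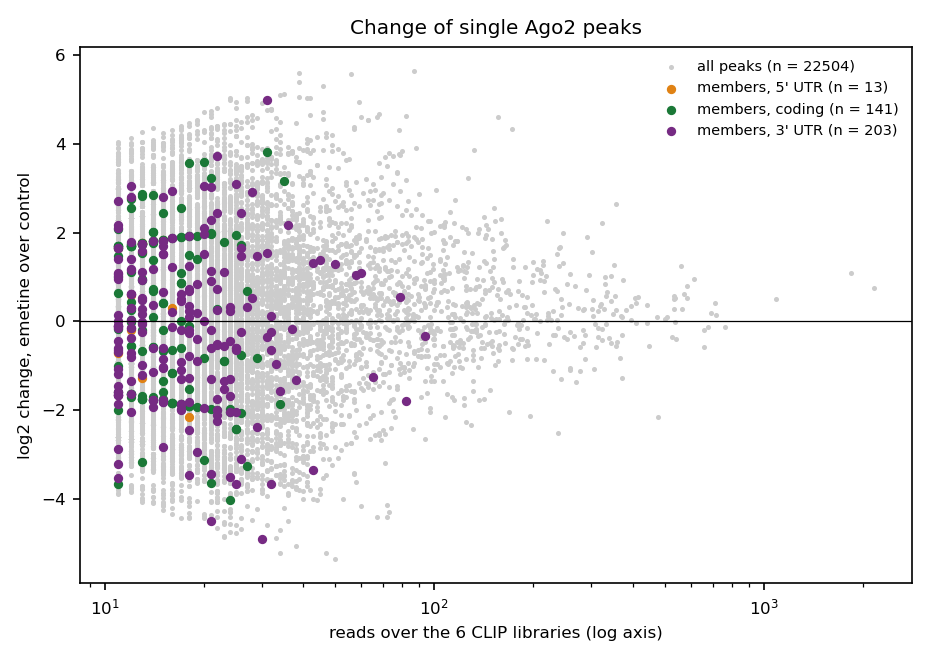
Change of each Ago2 peak, as log2 of emetine over control on the limma scale, against its reads over the 6 CLIP libraries on a log axis. Member peaks, coloured by transcript region, spread above and below 0 among all 22504 peaks in grey, most widely at low read numbers.

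Among the writers, the enhancer of zeste genes stood on the higher side. EZH2 held 4, 45 and 15 reads in the emetine libraries, against 9, 0 and 2 in the control libraries, a ratio of depth-scaled totals of 6.46 (95% counting interval 3.38 to 13.6). Emetine library 2 was the highest and control library 2 held none, and the treatments overlapped, since control library 1 exceeded emetine libraries 1 and 3 once scaled for depth. With a pair of overlapping EZH2 coding peaks of identical reads counted once, the ratio was 6.95 (3.27 to 17.0). The limma change of the EZH2 sum was 2.99 ± 1.73 (log2, SE; adjusted p = 0.8), and it was 1.53 without control library 2 and 4.63 without control library 1. EZH1, the paralog found in the same kind of complex, held 12, 75 and 40 reads with emetine, against 9, 34 and 17 in control cells. All 3 emetine libraries of EZH1 lay above all 3 control libraries after scaling, which held for 3.0% of all genes in this direction. Its ratio was 2.35 (1.72 to 3.25), with a limma change of 1.07 ± 1.01 (log2, SE; adjusted p = 0.8).

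Reads rested on many small EZH peaks. Of the 13 EZH1 and EZH2 peaks 11 were above 0 and 2 below, with a median log2 change of 1.53. With peaks of identical reads counted once, 9 of 11 were above 0 and the median was again 1.53. Over all 13 peaks the median stayed above 0 with each library left out. It was 0.11 without emetine library 2, 0.88 without control library 3 and between 1.11 and 2.08 otherwise. The EZH2 3′ UTR peak (hg19, chr7:148504611-148504650) held 0, 12 and 1 reads with emetine, against 0, 0 and 2 in control cells. Another EZH2 peak, in the coding sequence at chr7:148544355-148544390, held 0, 7 and 6 reads with emetine, against 0 in each control library. The EZH1 peak with most reads (3′ UTR, chr17:40852320-40852352) had 3, 27 and 14 reads with emetine, against 6, 4 and 6 in control cells. Its emetine libraries 2 and 3 were high, and emetine library 1 lay among the control libraries. All 3 coding peaks of EZH1 came from emetine library 2 alone, with 11, 15 and 15 reads. The 2 peaks with 15 reads may hold the same reads.

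The MLL genes, which encode H3 lysine methyltransferases of COMPASS-type complexes and relatives of them, did not share a direction. MLL2 held 57, 93 and 49 reads over 24 peaks with emetine, against 19, 136 and 94 in control cells, a ratio of 0.888 (0.733 to 1.07) and a limma change of 0.18 ± 0.69 (log2, SE; adjusted p = 0.986). MLL3 held 12, 113 and 52 reads with emetine, against 6, 70 and 76 in control cells, a ratio of 1.29 (1.04 to 1.62). Its limma log2 change was 0.52 ± 0.86 (SE). MLL held 3, 40 and 40 reads with emetine, against 1, 149 and 28 in control cells. For MLL, control library 2 stood far above the rest, so the ratio of totals was 0.518 (0.394 to 0.676) while the limma change, a mean over libraries, was 0.18 ± 1.15 (log2, SE; adjusted p = 1.0). The MLL reads of control library 2 lay in 7 peaks of the 3′ UTR. The peak with most reads (chr11:118396008-118396064) had 0, 11 and 1 reads with emetine, against 0, 48 and 5 in control cells. MLL5 held 5, 0 and 14 reads with emetine, against 2, 77 and 0 in control cells, again mostly in control library 2. With its peaks of identical reads counted once, the MLL5 ratio was 0.364 (0.201 to 0.629).

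Single peaks of these genes could be on 1 side only. An MLL2 3′ UTR peak (chr12:49414661-49414694) had 5, 17 and 0 reads with emetine, against 0 in each control library, with a limma log2 change of 3.73 ± 2.11 (SE). An MLL4 coding peak (chr19:36208974-36209033) had 0 reads in each emetine library and 6, 4 and 1 in the control, with a log2 change of -3.67 ± 2.12 (SE). In the MLL3 3′ UTR, the peak with most reads (chr7:151832827-151832852) held 3, 9 and 9 reads with emetine, against 0, 23 and 14 in control cells, so the treatments overlapped.

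The SETD genes also went both ways. SETD5, a SET-domain protein mutated in intellectual disability, held 33, 35 and 55 reads with emetine, against 23, 99 and 12 in control cells, a ratio of 1.02 (0.792 to 1.31). Its coding peak at chr3:9488858-9488904 had 2, 26 and 2 reads with emetine, against 0, 0 and 1 in control cells, with all emetine libraries above all control libraries. SETD2, the enzyme of H3 lysine trimethylation along transcribed genes, held 2, 26 and 7 reads with emetine, against 0, 27 and 47 in control cells, a ratio of 0.525 (0.341 to 0.796), while its limma change was 0.59 ± 1.63 (log2, SE; adjusted p = 0.962). SETD7, a monomethyltransferase, had 5, 16 and 23 reads over 5 peaks with emetine, against 5, 43 and 14 in control cells. One SETD7 3′ UTR peak (chr4:140430038-140430078) had 0 reads in each emetine library and 5, 21 and 4 in the control. Its log2 change was -4.90 ± 2.02 (SE; limma unadjusted p = 0.0155, adjusted p = 0.784). A second SETD7 3′ UTR peak (chr4:140427313-140427346) went the other way, with 1, 8 and 10 reads with emetine, against 0, 1 and 1 in control cells. The 14 methyltransferase genes together had 60 peaks above 0 and 54 below, and a ratio of 0.937, beside 1.04 over all peaks.

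Among the erasers, the demethylases had 25 peaks above 0 and 18 below, with a read ratio of 1.28, beside 1.04 over all peaks. KDM2A, which demethylates H3 at CpG islands, held 14, 51 and 138 reads with emetine, against 6, 65 and 50 in control cells, a ratio of 1.86 (1.48 to 2.35). Emetine library 3 was the highest, and the limma log2 change of the sum was 0.92 ± 0.87 (SE). Of the 14 KDM2A peaks 11 were above 0. Neighbouring KDM2A 3′ UTR peaks nevertheless differed. The peak at chr11:67023932-67023963 held 6, 0 and 39 reads with emetine, against 0, 12 and 22 in control cells. The peak that starts where it ends (chr11:67023963-67024006) had 0, 1 and 0 reads with emetine, against 4, 18 and 1 in control cells. A short way on, chr11:67024010-67024050 had 3, 10 and 13 reads with emetine, against 2, 0 and 8 in control cells, and there the treatments did not overlap.

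KDM5A and KDM3B were on opposite sides. KDM5A, an H3 demethylase that removes an active mark, held 4, 34 and 29 reads with emetine, against 3, 0 and 21 in control cells, a ratio of 3.10 (1.92 to 5.17) and a limma change of 2.63 ± 1.59 (log2, SE; adjusted p = 0.8). KDM5C, the X-linked relative, held 15, 14 and 33 reads with emetine, against 15, 18 and 2 in control cells. KDM3B, which acts on a repressive H3 mark, held 2, 0 and 0 reads with emetine, against 1, 20 and 41 in control cells. That is a ratio of 0.0358 (0.00425 to 0.135), on 2 emetine reads, with a limma change of -3.81 ± 2.17 (log2, SE; adjusted p = 0.8). Counting its peaks of identical reads once leaves 1 emetine read and a ratio of 0.0227 (0.000563 to 0.132). KDM6B, an eraser of the Polycomb mark, held 7, 20 and 15 reads with emetine, against 5, 21 and 30 in control cells, a ratio of 0.833 (0.545 to 1.27).

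The deacetylases were sparsely covered, with 14 peaks in 7 genes, 7 above 0 and 7 below. With peaks of identical reads counted once, which HDAC1, HDAC3 and HDAC9 have, 4 of 11 were above 0 and 7 below, and the median log2 change was -0.11 in place of 0.11. HDAC1, a class I enzyme of corepressor complexes, held 0, 11 and 30 reads with emetine, against 2, 10 and 0 in control cells. Its ratio was 3.796 (1.96 to 7.94), or 3.03 (1.48 to 6.70) with its peaks of identical reads counted once. The limma log2 change of the HDAC1 sum was 0.85 ± 2.13 (SE). HDAC3, the enzyme of the nuclear receptor corepressor complex, held 4, 0 and 22 reads with emetine, against 2, 0 and 0 in control cells. HDAC2, a close relative of HDAC1, was on the other side, with 0, 5 and 7 reads with emetine, against 7, 1 and 15 in control cells. Each of these sums overlapped between treatments.

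Among the readers, the Polycomb CBX genes had fewer Ago2 reads in the emetine libraries in total. Polycomb CBX proteins such as CBX2, CBX6 and CBX7 are chromodomain subunits of Polycomb repressive complex 1. The 46 peaks of the class were above 0 in 14 cases and below 0 in 32, with a median log2 change of -0.66, beside 0.01 over all peaks. Together they held 128, 79 and 113 reads with emetine, against 113, 265 and 260 in control cells. The ratio was 0.557 (0.486 to 0.638), beside 0.920 over all 3′ UTR peaks. Emetine library 1 did not follow this: of its member reads 31.6% were over this class, against 5.77% and 9.39% in emetine libraries 2 and 3 and 30.5%, 14.04% and 20.9% in the control libraries. The mean share was 15.6% ± 13.99 with emetine and 21.8% ± 8.25 in the control (SD, n = 3 each; exact permutation test, two-sided, p = 0.6; adjusted over 10 classes, p = 1.0). The median was -1.63 without emetine library 1, -0.26 without emetine library 2, -0.33 without emetine library 3 and between -0.96 and -0.54 without a control library.

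CBX6 held most of these reads. Its 24 peaks held 98, 31 and 33 reads with emetine, against 81, 127 and 158 in control cells, a ratio of 0.492 (0.406 to 0.593). Library 1 of each treatment was heavy in CBX6, with 24.2% of member reads with emetine and 21.8% in the control, while emetine libraries 2 and 3 had 2.26% and 2.74%, against 6.73% and 12.7% in control libraries 2 and 3. The part of the antibody in this was not tested. The limma change was -1.18 ± 0.64 (log2, SE; unadjusted p = 0.0661, adjusted p = 0.8), and it was -2.25 without emetine library 1 and -0.65 without emetine library 2 or 3. Of the CBX6 peaks 18 were below 0 and 6 above. Single peaks ran both ways: chr22:39261439-39261493 held 2, 0 and 0 reads with emetine, against 4, 16 and 10 in control cells, while the peak with most reads, chr22:39260734-39260776, held 12, 6 and 6 with emetine, against 6, 0 and 20 in control cells. At the 3′ end of the listed stretch, the peak at chr22:39260288-39260322 had 0 reads in each emetine library and 1, 23 and 1 in the control.

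The other Polycomb CBX genes added less. CBX2 held 26, 48 and 61 reads over 19 peaks with emetine, against 32, 109 and 100 in control cells, a ratio of 0.622 (0.5004 to 0.772). Its depth-scaled sums did not overlap, all emetine libraries being lower, which held for 2.18% of all genes; the limma change was -0.58 ± 0.73 (log2, SE; adjusted p = 0.822). CBX7 had a single peak with 0, 0 and 1 reads with emetine, against 0, 20 and 0 in control cells, so control library 2 alone set its ratio. Without CBX6, the class had 8 peaks above 0 and 14 below and a median of -0.46, which was 0.16 without control library 2.

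Among the HP1 genes, CBX5 had peaks on opposite sides within its 3′ UTR. CBX5, CBX1 and CBX3 encode HP1 alpha, beta and gamma, which bind methylated H3 in heterochromatin. CBX5 held 16, 61 and 24 reads with emetine, against 25, 56 and 87 in control cells, a ratio of 0.668 (0.517 to 0.860). In its long 3′ UTR the peak at chr12:54633252-54633307 had 2, 18 and 11 reads with emetine, against 0 in each control library, with a log2 change of 5.001 ± 2.01 (SE; limma unadjusted p = 0.013, adjusted p = 0.784). A peak 7117 bases further along the transcript, chr12:54626135-54626170, had 0 reads in each emetine library and 7, 12 and 2 in the control, with a log2 change of -4.50 ± 2.05 (SE; limma unadjusted p = 0.0284, adjusted p = 0.784). In both peaks all libraries of one treatment lay above all libraries of the other. Counted over all members, 6 peaks had every emetine library above every control library, beside 2.55% of all peaks, and 8 had every emetine library below, beside 1.43%. CBX3 held 1, 21 and 10 reads with emetine, against 3, 1 and 1 in control cells, a ratio of 7.11 (2.75 to 23.4). Its limma log2 change was 1.94 ± 1.99 (SE).

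**Figure D3:**
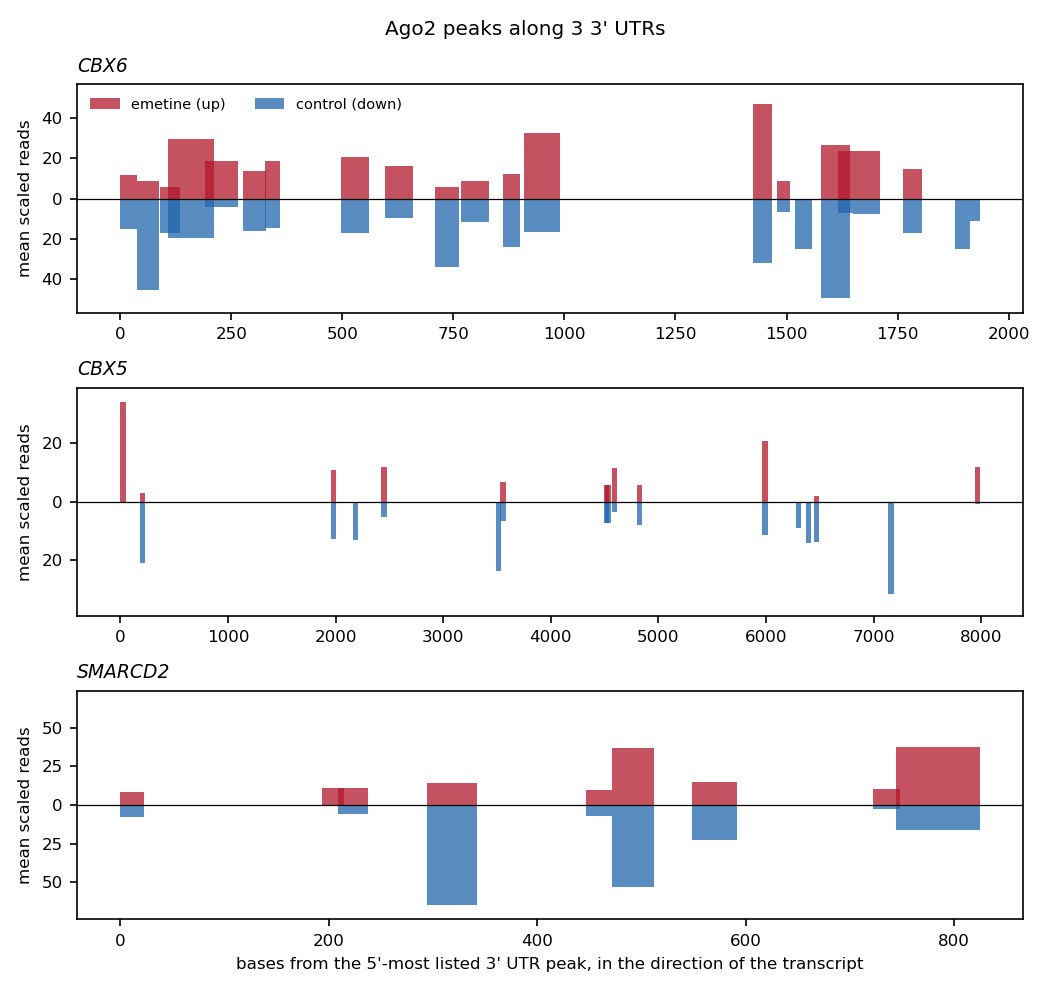
Mean depth-scaled reads over 3 libraries of each listed 3′ UTR peak, emetine up and control down, against distance in bases from the 5′-most listed 3′ UTR peak of CBX6, CBX5 and SMARCD2. The bars of CBX5 differ in side along the transcript, with the first peak read only in emetine libraries and the peak 7117 bases further only in control libraries.

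Among the remodelers, the SWI/SNF subunits had 27 peaks above 0 and 21 below, with a read ratio of 1.03, beside 1.04 over all peaks. SMARCD2, an accessory subunit, held 5, 50 and 105 reads with emetine, against 17, 95 and 66 in control cells, a ratio of 0.999 (0.802 to 1.24). Its 3′ UTR peak with most reads, chr17:61909796-61909836, held 1, 21 and 14 reads with emetine, against 1, 30 and 27 in control cells. ARID1A is a DNA-binding subunit of the canonical complex and a frequent target of cancer mutations. It held 20, 48 and 27 reads over 16 peaks with emetine, against 32, 90 and 57 in control cells. Its ratio was 0.590 (0.455 to 0.760), or 0.674 (0.516 to 0.876) with its peaks of identical reads counted once. The limma log2 change of the ARID1A sum was -0.73 ± 0.83 (SE). Against this direction, the ARID1A 3′ UTR peak at chr1:27107264-27107310 had 5, 11 and 8 reads with emetine, against 3, 0 and 1 in control cells. Its paralog ARID1B had 0, 16 and 28 reads with emetine, against 0 in each control library. That was 16.3-fold higher when the control total is set at a floor of 3 reads over its 3 libraries. The 95% counting interval of the ARID1B ratio began at 12.7. ARID2, the subunit of the PBAF form, held 1, 11 and 10 reads with emetine, against 2, 0 and 0 in control cells. SMARCC1, a scaffold subunit, held 0, 53 and 3 reads with emetine, against 0, 21 and 0 in control cells, nearly all in library 2 of each treatment. The related SMARCC2 held 3, 0 and 33 reads with emetine, against 4, 38 and 13 in control cells.

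The CHD genes had 17 peaks above 0 and 15 below, with a read ratio of 1.25, beside 1.04 over all peaks and 1.22 over all coding peaks. Reads in 1 library only were found for 59.4% of their peaks, against 26.4% of all peaks and 34.3% of all coding peaks. CHD8, a remodeler mutated in autism, held 4, 16 and 12 reads with emetine, against 0 in each control library. CHD8 was 11.9-fold higher at the same floor, and its counting interval began at a ratio of 9.09. Its limma change was 5.31 ± 2.40 (log2, SE; unadjusted p = 0.027, adjusted p = 0.8). One of its peaks, in the coding sequence at chr14:21863077-21863119, held 4, 16 and 0 of these reads. CHD7, the gene of CHARGE syndrome, held 3, 87 and 9 reads with emetine, against 0, 44 and 3 in control cells, mostly in library 2. Its ratio was 2.34 (1.64 to 3.39), with a limma log2 change of 2.51 ± 1.66 (SE). CHD1, which binds H3 methylated by COMPASS, held 0, 46 and 15 reads with emetine, against 2, 0 and 12 in control cells. CHD9 held 1, 28 and 25 reads with emetine, against 0, 88 and 13 in control cells, and CHD6 0, 0 and 12 with emetine, against 0, 38 and 5 in control cells. The treatments overlapped for each of CHD1, CHD6, CHD7 and CHD9.

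The remaining members were few. ARID3A, a DNA-binding protein with an ARID domain, had 0 reads in each emetine library and 7, 14 and 14 in the control. ARID3A was 10.5-fold lower with the emetine total at the floor of 3 reads, and its counting interval ended at a ratio of 0.1235. Its limma change was -5.43 ± 2.38 (log2, SE; unadjusted p = 0.0226, adjusted p = 0.8). ARID4A and ARID4B are subunits of the SIN3 corepressor. ARID4A had 0, 0 and 51 reads with emetine, all in library 3, and 0 in each control library. ARID4B held 4, 23 and 35 reads with emetine, against 0, 39 and 49 in control cells, a ratio of 0.783 (0.556 to 1.096), while its limma change was 1.42 ± 1.41 (log2, SE; adjusted p = 0.8). The helicase SMARCAD1 held 0, 17 and 0 reads with emetine, against 0, 22 and 12 in control cells, a ratio of 0.556 (0.291 to 1.02). Of the MLLT genes, MLLT4 held 8, 4 and 43 reads with emetine, against 10, 17 and 11 in control cells, and its coding peak at chr6:168347460-168347501 had 5, 0 and 13 reads with emetine, against 0 in each control library.

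By transcript region, the median change of the coding peaks of the chromatin genes was above 0 and that of the 3′ UTR peaks below 0, as over all peaks. The median log2 change of the 141 member coding peaks was 0.41, beside 0.29 over all coding peaks, with 76 above 0 and 65 below, and it lay between 0.00 and 0.79 with each library left out. Over the 203 member 3′ UTR peaks it was -0.14, beside -0.17 over all 3′ UTR peaks, with 94 above 0 and 109 below, and it lay between -0.39 and 0.11 with each library left out. Coding peaks held 23.5%, 45.3% and 31.2% of member reads in the emetine libraries, against 25.3%, 41.3% and 25.1% in control libraries. The mean was 33.3% ± 11.1 with emetine and 30.6% ± 9.26 in the control (SD, n = 3 each; exact permutation test, two-sided, p = 0.7; adjusted over 3 regions, p = 0.7). Library 2 of each treatment was the highest, so the libraries differed more than the treatments did. The 3′ UTR share was 63.0% ± 11.6 with emetine and 67.0% ± 7.80 in the control (SD, n = 3 each; exact permutation p = 0.7).

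In 5′ UTRs, member genes had a lower share of reads than the other mRNAs in 6 of 6 libraries. The share of member reads was 2.47%, 3.87% and 4.82% with emetine, against 4.85%, 0.530% and 1.84% in control libraries. For other mRNAs it was 13.7%, 4.05% and 4.87% with emetine, against 14.8%, 3.12% and 4.30% in control libraries. The mean difference was -4.42 percentage points (exact sign-flip test over 6 libraries, two-sided, p = 0.03125, the smallest it can give; adjusted over 3 regions, p = 0.0938), so it did not pass after adjustment. It was largest in library 1 of each treatment. The 13 member 5′ UTR peaks held 10, 53 and 58 reads with emetine, against 18, 10 and 23 in control cells, so library 1 ran the other way. Of these peaks 9 were above 0 (69.2%, beside 53.2% of all 5′ UTR peaks), but 5 were above and 6 below without emetine library 3, and 2 of the 6 with reads in at least 3 libraries were above.

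**Figure D4:**
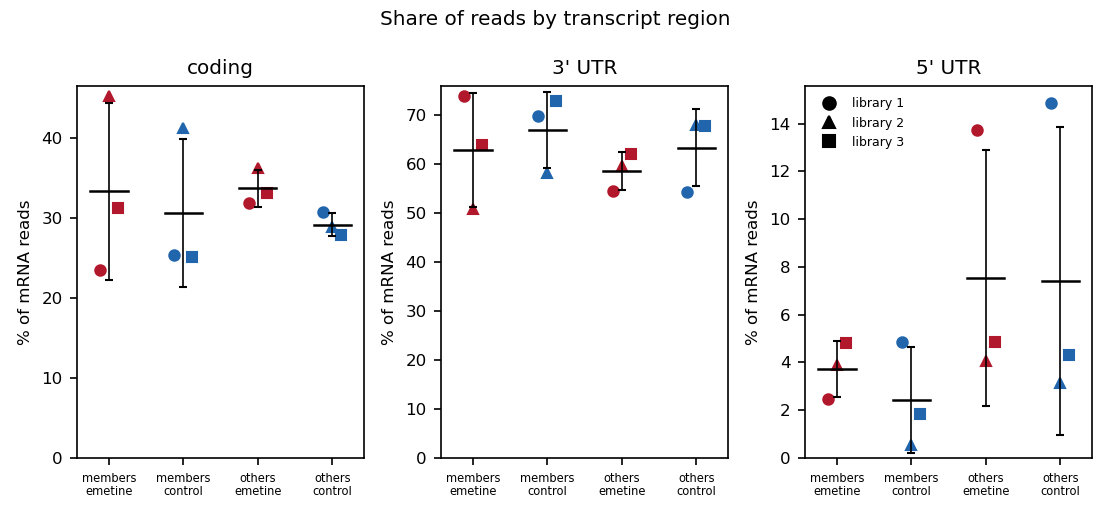
Share of reads in coding, 3′ UTR and 5′ UTR peaks for member genes and for other mRNAs, in percent of their reads over these 3 regions, by treatment. Points are libraries, lines the mean of 3 and bars the SD; the coding share of member genes was highest in library 2 of both treatments.

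RNA of the chromatin genes was close to its control level after 60 minutes. With 1 RNA library per treatment there was no test, and intervals cover counting error only. RNA ratios are given for the 68 member genes that reached 50 RNA reads. Of these, 44 (64.7%) were above 0 on the log2 scale, against 50.9% of all such genes, with a median of 0.07, beside 0.01 over all. The ratios ran between -0.52 and 0.81. Above 0.5 were 5 (7.35%), beside 6.19% of all genes, and 1 was below -0.5 (1.47%), beside 5.93%. The 95% interval lay above 0 for 13, below 0 for 4 and over 0 for 51. Intervals were not counted over all genes, so these numbers have no share to be set beside. Among the highest were SETD4 (0.81, 0.29 to 1.37), ARID5B, a DNA-binding regulator of adipose and lymphoid genes, with 1008 reads with emetine, against 228 in control cells (0.80, 0.59 to 1.01), and SMARCAL1 (0.56, -0.01 to 1.17), a helicase of stalled replication forks. The lowest were SMARCD2, with 284 reads with emetine, against 160 in control cells (-0.52, -0.80 to -0.23), CBX7 (-0.48, -0.96 to 0.02), SMARCD3 (-0.34, -0.94 to 0.27) and SETD1B (-0.32, -0.81 to 0.20).

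RNA and Ago2 reads of a gene could differ in side. ARID5B, with more RNA, had 0, 0 and 5 Ago2 reads with emetine, against 0, 12 and 27 in control cells. CBX6 RNA had 216 reads with emetine, against 75 in control cells, a log2 ratio of 0.18 (-0.20 to 0.58), beside its Ago2 ratio of 0.492. EZH2 RNA had 582 reads with emetine, against 219 in control cells, a log2 ratio of 0.07 (-0.16 to 0.30), beside its Ago2 ratio of 6.46. CHD8 RNA, with 1585 reads with emetine, against 462 in control cells, had a log2 ratio of 0.43 (0.28 to 0.59) and was on the same side as its Ago2 reads. In the authors' deposited table, which divides Ago2 by RNA, the median log2 ratio of the member peaks was 0.06, beside 0.05 over all peaks.

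**Figure D5:**
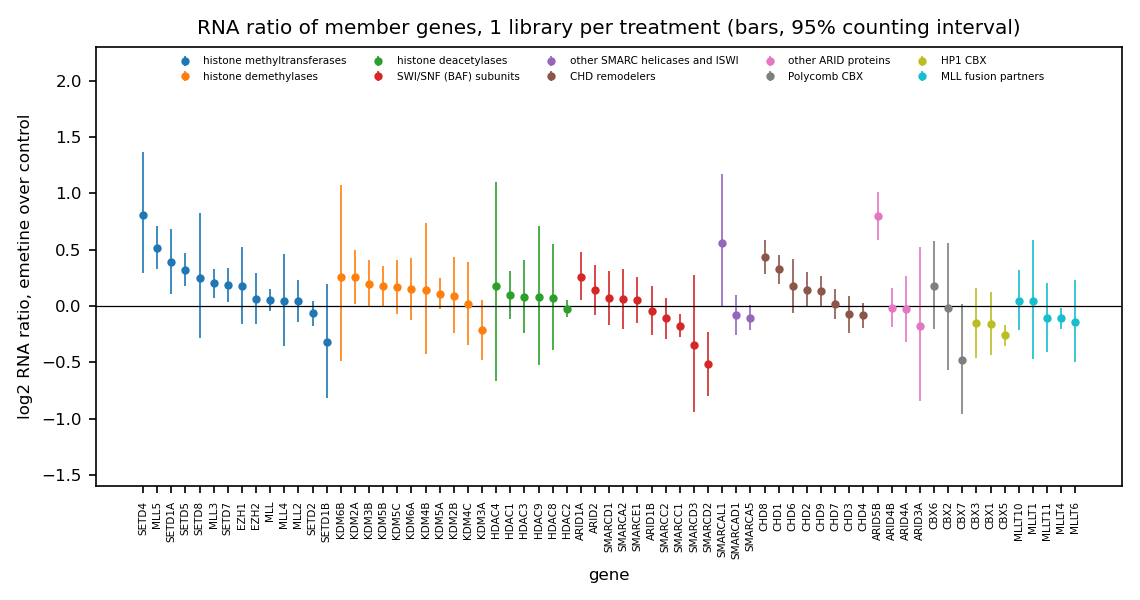
Log2 RNA ratio of emetine over control for member genes with at least 50 RNA reads, 1 of them not shown, grouped by class, with 1 library per treatment and bars for the 95% counting interval. Most intervals reach over 0, and SETD4 and ARID5B are among the highest.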

How the data were processed

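CLIP and RNA-seq of 293S cells gave 8 libraries. The authors gave, per the file headers, a position, gene, region, normalised average and ratio per peak. Both values are logarithms whose base the headers do not name and which match the natural log. Log2 values were made from the deposited natural log. The submitters' processing notes name hg19, Bowtie 0.12.8, TopHat and DESeq, without roles. The average plus or minus 0.5 times the ratio is the mean over 3 CLIP libraries of ln(1 + reads × value of 1 read), less the same for RNA. Whole reads that satisfy this were recovered for 22504 of 22506 peaks (99.991%, tolerance 5e-14), including all 357 member peaks; on simulated peaks 100.0% came back exactly. The other 2 peaks were left out. One member gene and 1 marker are not reported here by name. No column holds a single library, so no antibody was assigned. One read was worth 8.86, 3.00 and 2.81 in the emetine CLIP libraries, 8.00, 2.82 and 2.43 in those of the control, 2.51 in the emetine RNA and 6.37 in the control RNA.

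Peaks and gene sums were tested in limma 3.58.1 (R 4.3.3), allowing a trend, on log2(reads × value of 1 read + 1), treatment only, Benjamini-Hochberg adjustment over the whole table, threshold 0.05, and no filter. A log2 change is a mean of logarithms and can differ in sign from the ratio of totals. In simulated counts of all peaks, 200 peaks were changed, all with mean depth-scaled reads at or above the median. Peaks below that median were given no change. With a dispersion of 0.2, 89.5% of 8-fold and 26.5% of 4-fold changes were called, and with a dispersion of 2, 0% were. Both dispersions were set values and not estimates from these data. Shares used exact permutation tests (scipy 1.17.1). Ratios of totals carry exact binomial (Clopper-Pearson) 95% intervals for counting error only; PCR copies are not independent molecules. A total of 0 was set at 3 reads over a treatment's 3 libraries. Another peak of the transcript had identical reads for 32 member peaks, so their reads may be counted more than once; overlapping peaks were kept. 3′ UTRs came from GENCODE on GRCh38.

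Members, lists and tests were chosen with earlier results of these data known. Named by rule were, per family, the gene with most reads, the 8 highest and 8 lowest read ratios among the 34 genes with at least 50 reads, the 6 peaks of smallest p per direction, the 6 with most reads, 4 RNA ratios at each end, and up to 4 genes per class; ARID1B, ARID2, further single peaks and the microRNAs were chosen after their values were seen. Alternatives changed the constant (0.5 and 5), scaling, filter, tool (limma-voom), depth terms and libraries.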

Additional observations from a re-analysis of the deposited data

How the results depend on the processing

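No member peak or gene sum passed the adjusted threshold under any setting run. The number of member peaks at an unadjusted limma p under 0.05 was 3 of 357, beside 240 of all 22504 peaks. It became 5 with a constant of 0.5 (beside 274 of all peaks) and 5 with trimmed-mean scaling (beside 215). With limma-voom it was 9 (beside 551), and with a depth class as covariate 7 (beside 437). With each library left out it lay between 2 and 11, beside 299 to 446 of all peaks. For gene sums the number was 2, beside 117 of all 6326 genes. It was 0 with limma-voom (beside 2 of all genes) and 4 with the depth class (beside 232). With a library left out it lay between 1 and 5, beside 68 to 197 of all genes. No paired analysis was possible because the libraries carry no antibody. With the depth rank as a replicate block in its place, 8 member peaks had an unadjusted limma p under 0.05, beside 639 of all peaks. The correlations of emetine and control libraries of the same rank were 0.253, 0.114 and 0.0606. Between ranks, library 1 with library 2 or 3 gave -0.181 to -0.0855. Emetine library 2 with control library 3 gave 0.0787, above the same-rank value of library 3, and emetine library 3 with control library 2 gave 0.0334. After adjustment that block called 4 of all peaks and 1 gene, the depth class 3 genes and limma-voom 2 genes, none of them members, where the limma fit by treatment alone called 0. The median log2 change of member peaks lay between -0.29 and 0.14 with a library left out. The difference in the share of reads in member genes lay between -0.231 and 0.110 percentage points, and that in the coding share between -3.22 and 8.11. Of 302 values of the 34 named peaks and genes under the other settings, 298 kept their direction; the exceptions were the KDM2A peak at 67023932 (-0.24, limma-voom), the MLL sum (-0.15, limma-voom) and the SETD2 sum (-0.0184 with a constant of 5 and -0.56 with limma-voom). With a library left out, 183 of 204 kept it. The reversed ones, with the range of their log2 change, were the peaks of SMARCD2 at 61909796 (-1.36 to 0.45), KDM2A at 67023932 (-1.26 to 2.64), MLL at 118396008 (-3.07 to 0.48), MLL3 at 151832827 (-0.82 to 2.21) and CBX6 at 39260734 (-0.57 to 2.24), and the sums of CHD1 (-0.32 to 3.28), HDAC1 (-0.64 to 2.77), SMARCC1 (-0.35 to 3.52), MLL5 (-2.32 to 1.57), MLL (-1.24 to 1.54) and SETD2 (-1.59 to 1.83). The median of the Polycomb CBX peaks without CBX6 lay between -0.63 and 0.16. The causes were not tested. There was 1 culture per treatment, a median of 15 reads per peak and 3 antibodies that cannot be told apart. Whether depth or the spread between libraries limits the calls was not tested.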

Other observations

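Genes of related chromatin complexes that the symbol rule leaves out also had no peak past the adjusted threshold. In pooled read ratio some of their groups differed from the related member class, which was not tested, and only some groups are given here. Of the 146 listed, 97 had 455 peaks, of which 216 were above 0 and 239 below, and 0 passed limma's adjusted threshold; 2 higher and 1 lower had an unadjusted p under 0.05. Further BAF partners held 32, 80 and 57 reads with emetine and 14, 225 and 162 in the control. Of their 37 peaks 12 were above 0. Their read ratio was 0.468 (0.389 to 0.562), against 1.03 for the member SWI/SNF subunits. Summed per gene, however, 5 of these partners were above 0 and 5 below, and library 1 ran the other way. Other Polycomb genes held 70, 527 and 475 reads with emetine and 46, 584 and 427 in the control. Of their 104 peaks 55 were above 0. Their read ratio was 1.13 (1.03 to 1.23), against 0.557 for the Polycomb CBX genes and 1.04 over all peaks. By gene sums, 10 of these other Polycomb genes were above 0 and 10 below. Histone acetyltransferase genes had 18 of 33 peaks above 0.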
